A study of Mus musculus with 10 samples.

Results

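The genes described here encode the machinery that copies DNA: the complexes that mark and license replication origins, the MCM2-7 helicase and the factors that start it, the replicative polymerases, the sliding clamp with its loader, the single-strand binding protein RPA, the enzymes that join lagging strand fragments, and ribonucleotide reductase. They were chosen by symbol and not by any measured value, and a gene counted as measured when one of its probes was detected on 5 or more of the 10 arrays, with a detection p no higher than 0.05. In all, 43 of the 9401 measured genes belonged to the set. They were read by 73 probes, and the probe with the highest mean signal stood for each gene. Gmnn, Mcm8, Mcm9, Pola1 and Pole2 have no entry in the probe table used here and were not analysed.

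The samples were G-CCE cells, a mouse embryonic stem cell (mESC) line, read on Illumina bead arrays that report 1 brightness per probe. There were 5 lines at 2 time points. At d3 the cells had been without leukemia inhibitory factor (LIF), the cytokine that holds mESCs in self-renewal, for 3 days, and at d0 they were still grown with it. The paper's methods describe differentiation in hanging drops, then as aggregates in bacterial dishes, and maintenance on gelatin. If the d3 cells were grown so, the day and the form of culture cannot be told apart. The line labelled MMTR KD had received a lentivirus with a short hairpin RNA against MMTR/Dmap1, a partner of Dnmt1 and a subunit of the Tip60-p400 chromatin complex. Flag-tagged plasmids for full-length MMTR (MMTR-F), its C-terminal part (MMTR-C) and its N-terminal part (MMTR-N) had been transfected into the other altered lines, and WT had not been transfected. A line carrying a mutant hairpin was made in the study but is not analysed here, so the controls in each comparison are untransfected cells. Each line gave 1 library per day. The lines served as 5 pairs for the days, and each line's difference from WT over both days rests on 2 libraries against 2. Whether the libraries of a line came from separate cultures was not stated. With 1 library per line and day, the p-values below hold no spread between replicates of a line. They rest on the differences that line and day leave over in these 10 libraries, and on a variance prior from all probes.

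Replication is prepared in G1, when the origin recognition complex (ORC), Cdc6 and Cdt1 load MCM2-7 onto DNA, and is fired in S phase, when Cdc45 and the GINS complex turn MCM2-7 into an active helicase. Polymerase alpha with primase lays down primers, polymerase epsilon extends the leading strand and polymerase delta the lagging strand, held on DNA by the PCNA ring that replication factor C (RFC) loads. mESCs divide quickly with a short G1, and many of these genes are textbook targets of the E2F transcription factors.

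All values are log2 normalized signals, and a difference of 1 on this scale is a doubling. Signals of different probes cannot be set against each other, so each level is compared only with the same probe on other arrays. Before normalization the median signal was 337.3 to 346.8 on d3 arrays and 217.7 to 243.9 on d0 arrays, and 16699 to 17710 probes were detected at d3 against 18152 to 18837 at d0. The brightness of the arrays and the day cannot be told apart. The targeted gene did not follow every label: Dmap1 read 10.38 in MMTR KD, 10.34 in MMTR-N, 12 in MMTR-C, 10.18 in MMTR-F and 10.42 in WT at d3, against 10.78, 10.52, 12, 10.48 and 10.59 in the same lines at d0. It was higher than in WT in the MMTR-C libraries, but it was not lower than in WT in the library labelled MMTR KD at d0, lay close to WT in that at d3, and was not higher in those labelled MMTR-F or MMTR-N. Which part of the transcript the Dmap1 probe reads was not tested, so the MMTR-N value checks nothing. MMTR KD and MMTR-F are therefore names of libraries here, and no direction drawn from them is tied to the amount of MMTR. This rests on RNA alone. The paper itself shows immunoblots of its MMTR-F, MMTR-N and MMTR-C lines. By ChIP-qPCR it reports more MMTR at promoters in overexpressing cells and less in knockdown cells. All 10 listed mESC markers were detected, with summed raw signals of 112000 to 153000 at d3 and 147000 to 210000 at d0. Of the other lists, 1 of 6 trophectoderm genes (Tfap2a), 2 of 6 primitive endoderm genes (Dab2, Sox7), 1 of 6 mesoderm genes (Mixl1), 1 of 6 neuroectoderm genes (Nes), 1 of 7 fibroblast genes (Thy1) and 1 of 6 macrophage genes (Csf1r) passed the detection filter.

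Promoter sequence was available in the RefSeq table (GRCm38.p6) for 36 of the 43 genes, as windows of 300 bases that run from 250 before to 50 after a start site. Both strands were searched for 4 forms of the E2F motif, TTTCCCGC, TTTGGCGC, TTTCGCGC and TTTGCCGC. At least 1 form was found for 14 of the 36 genes (38.9%, 95% Wilson interval 24.8 to 55.1), beside 704 of all 27025 genes in the table (2.6%). These 27025 include genes not measured here, and the share among measured genes alone was not counted. The interval treats the 36 genes as a random sample, although they were chosen by symbol. With TTTCCCGC and TTTGGCGC alone the shares were 12 of 36 (33.3%) and 486 of 27025 (1.8%). The genes with a match were Cdc6, Cdt1, Gins3, Lig1, Mcm3, Mcm5, Mcm6, Mcm7, Orc1, Orc3, Pold1, Pold3, Pole4 and Rfc3. No entry was at hand for Gins1, Gins2, Gins4, Mcm4, Pole, Prim2 and Rfc2.

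The windows of 5 genes that the results turn on are shown 5′ to 3′ on the gene's own strand, with matches to the motif or to its reverse complement in capitals. Pole4 (chr6:82652816-82653115, minus strand) and Pcna (chr2:132253131-132253430, minus strand) had the lowest fitted differences at d3 against d0. Pold1 (chr7:44548766-44549065, minus strand) and Rfc3 (chr5:151651159-151651458, minus strand) were higher at d3 in all 5 lines. Mcm5 (chr8:75109259-75109558, plus strand) carries 2 motif forms that overlap by 4 bases.
Pole4: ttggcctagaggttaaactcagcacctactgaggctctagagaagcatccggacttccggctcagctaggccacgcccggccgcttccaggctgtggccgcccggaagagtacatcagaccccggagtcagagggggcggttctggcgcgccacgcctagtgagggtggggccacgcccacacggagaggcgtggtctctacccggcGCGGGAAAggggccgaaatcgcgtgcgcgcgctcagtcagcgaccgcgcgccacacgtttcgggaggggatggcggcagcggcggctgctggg
Pcna: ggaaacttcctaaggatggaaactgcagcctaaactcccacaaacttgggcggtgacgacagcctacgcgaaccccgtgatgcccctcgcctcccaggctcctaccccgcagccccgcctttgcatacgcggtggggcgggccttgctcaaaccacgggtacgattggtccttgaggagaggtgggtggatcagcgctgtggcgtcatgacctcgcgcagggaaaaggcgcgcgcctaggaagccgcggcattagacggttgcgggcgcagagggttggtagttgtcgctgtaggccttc
Pold1: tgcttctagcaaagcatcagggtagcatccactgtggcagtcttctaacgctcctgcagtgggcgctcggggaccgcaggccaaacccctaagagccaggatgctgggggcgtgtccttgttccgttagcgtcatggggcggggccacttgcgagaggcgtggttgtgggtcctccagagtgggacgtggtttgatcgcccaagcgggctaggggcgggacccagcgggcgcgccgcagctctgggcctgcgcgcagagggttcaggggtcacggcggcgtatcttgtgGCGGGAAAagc
Rfc3: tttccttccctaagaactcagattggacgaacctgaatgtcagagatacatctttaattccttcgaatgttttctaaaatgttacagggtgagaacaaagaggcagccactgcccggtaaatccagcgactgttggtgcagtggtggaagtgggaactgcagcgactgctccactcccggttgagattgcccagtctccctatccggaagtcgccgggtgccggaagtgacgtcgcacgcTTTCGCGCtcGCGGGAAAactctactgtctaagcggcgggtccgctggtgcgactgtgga
Mcm5: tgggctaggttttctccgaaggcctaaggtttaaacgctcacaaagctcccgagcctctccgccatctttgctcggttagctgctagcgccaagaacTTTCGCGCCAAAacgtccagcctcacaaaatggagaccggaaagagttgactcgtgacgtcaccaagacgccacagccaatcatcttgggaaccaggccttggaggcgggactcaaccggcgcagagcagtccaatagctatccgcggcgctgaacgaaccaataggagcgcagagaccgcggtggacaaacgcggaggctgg
The Pole4 match starts at position -43 from the start site, the Pold1 match at 39, those of Rfc3 at -10 and 0, and those of Mcm5 at -153 and -149, where 0 is the start site that defines the window. The Pcna window holds none of the 4 forms, which says only that these letters are not in it.

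The comparison of d3 with d0 asks how expression changed while mESCs left self-renewal. Replication genes mostly read lower at d3, by small amounts. In limma's fit of line and day, 18 of the 43 genes fell and 6 rose, with adjusted p below 0.05, and 19 passed in neither direction. Among all 9401 genes 25.3% fell and 26% rose, so the share that fell in the set, 18 of 43, stood above that of all genes and the share that rose below it. The median difference over the set was -0.14, beside 0.01 over all genes, with 31 genes below 0 and 12 above. Differences spanned -0.85 to 0.50. In these bulk samples fewer cells in S phase and less RNA per cell cannot be told apart. The split depends on the scaling: with arrays scaled to a common median in place of quantile normalization, 28 genes fell and 2 rose. Of all 17775 probes 4821 fell and 5797 rose with this scaling, and the median of the set was -0.30 where that of all probes was 0.04. Beside the rises that weakened there, 10 falls grew by over 1.5 times, to -0.64 for Rfc5, -0.56 for Cdt1, -0.49 for Lig1 and Mcm10, -0.48 for Mcm5, -0.46 for Orc6, -0.45 for Pold2, -0.42 for Gins4, -0.41 for Orc5 and -0.38 for Rfc1. Line by line, the median d3 minus d0 difference of the set was -0.10 in MMTR KD, -0.17 in MMTR-N, -0.16 in MMTR-C, -0.10 in MMTR-F and -0.08 in WT. In 8 genes (Mcm10, Orc1, Orc2, Pcna, Pole4, Prim2, Rfc1, Rfc5) all 5 d3 libraries lay below all 5 d0 libraries, and in 3 (Pola2, Pold1, Rfc3) all lay above, beside 12.8% and 13.3% of all genes. Of the 24 calls, 10 of the 18 falls and 4 of the 6 rises remained whichever line was left out. The share of calls that remained among all genes was not counted.

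**Figure D1:**
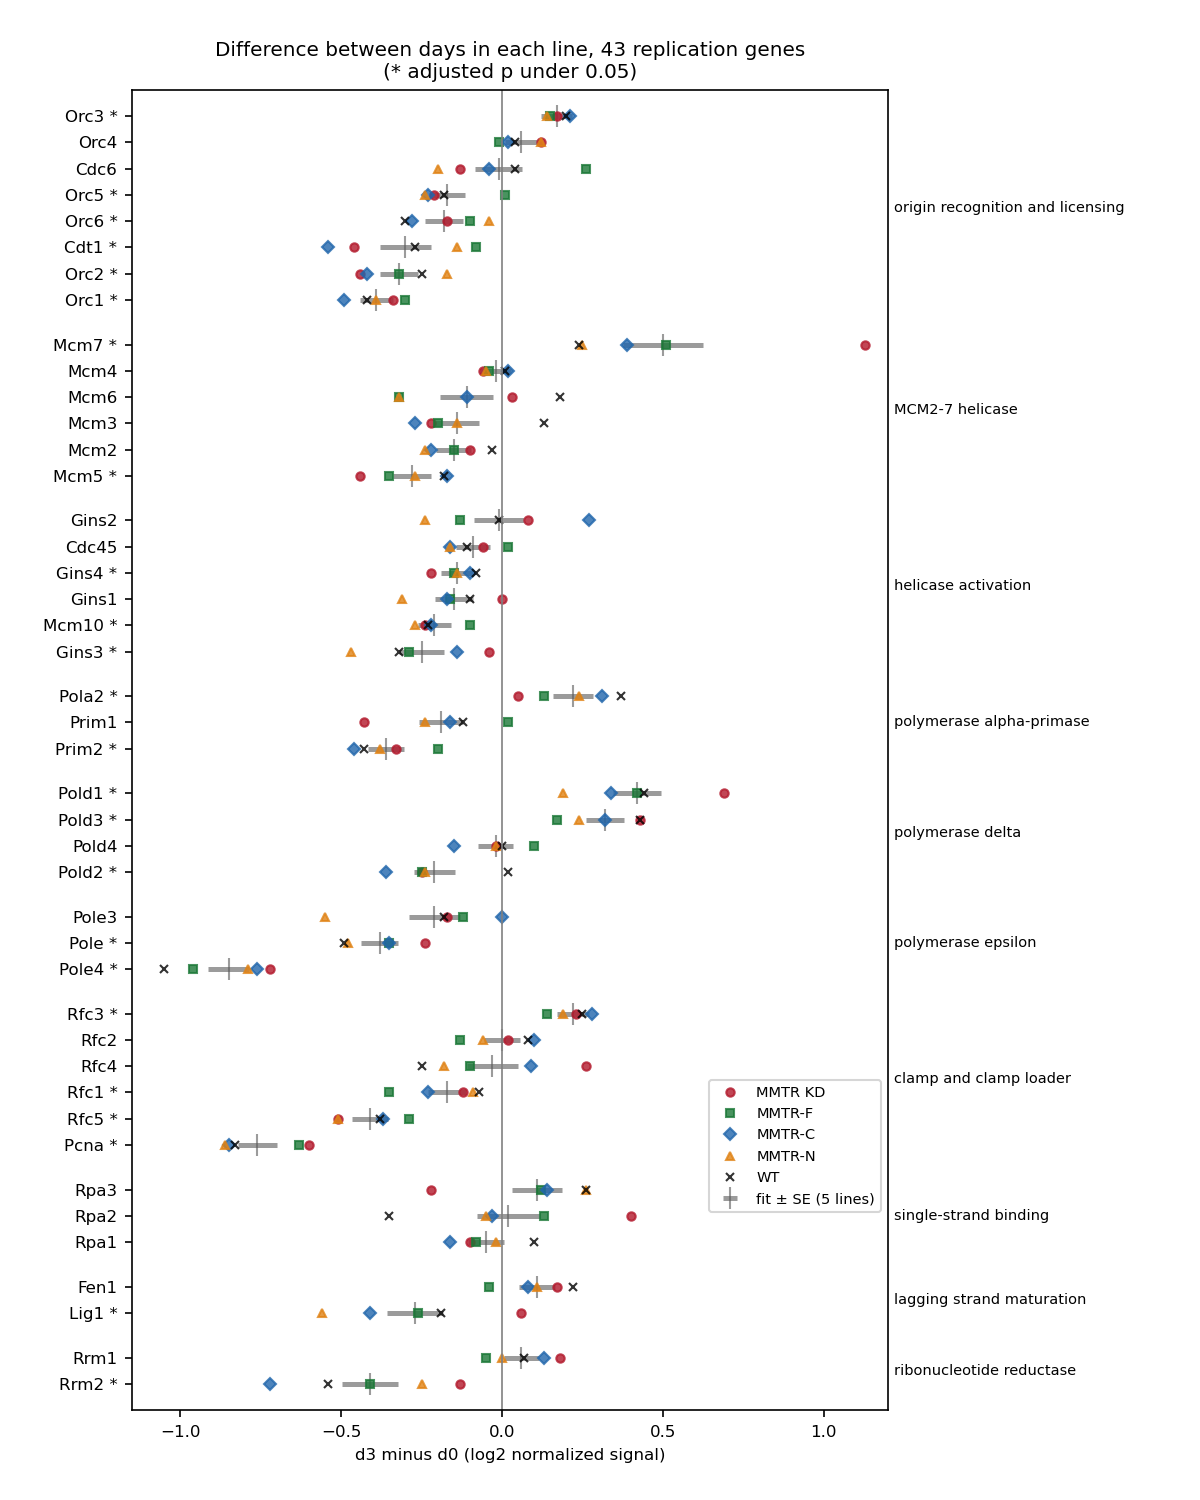
Difference between d3 and d0 (x axis, log2 normalized signal) of each of the 43 genes, grouped by role. Symbols are the 5 lines, bars the fitted difference ± SE, and a star marks an adjusted p below 0.05. Pole4 and Pcna lie farthest to the left, at -0.85 and -0.76, and Mcm7 has the highest fitted difference, 0.50.

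The polymerase epsilon subunits held the largest fall. Pole4, a small histone-fold subunit, had a mean level of 9.94 and read 9.54 in MMTR KD, 9.51 in MMTR-N, 9.51 in MMTR-C, 9.70 in MMTR-F and 9.30 in WT at d3, against 10.26, 10.30, 10.27, 10.66 and 10.35 in the same lines at d0. Every d3 library lay below every d0 library. The means were 9.51 ± 0.141 at d3 and 10.37 ± 0.168 at d0 (SD, n = 5 lines), a 1.81-fold lower signal at d3 (difference -0.85, SE 0.0646, adjusted p = 6.2e-05). The catalytic subunit Pole had a mean level of 10.80 and read 10.62 in MMTR KD, 10.77 in MMTR-N, 10.35 in MMTR-C, 10.82 in MMTR-F and 10.49 in WT at d3, against 10.86, 11.24, 10.70, 11.17 and 10.98 in the same lines at d0. It was lower at d3 in 5 of 5 lines, although the ranges of the days overlapped, with MMTR-C low and MMTR-F and MMTR-N high on both days. Its difference was -0.38 (SE 0.0568, adjusted p = 0.0011). Pole3, the histone-fold partner of Pole4, had a mean level of 10.35 and a difference of -0.21 that did not pass the test (adjusted p = 0.063), while its 2 other probes gave -0.18 (adjusted p = 0.044) and -0.11 (adjusted p = 0.27).

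The clamp and its loader came next. Pcna, the ring that tethers polymerases to DNA, had a mean level of 9.63 and read 9.18 in MMTR KD, 9.08 in MMTR-N, 9.35 in MMTR-C, 9.33 in MMTR-F and 9.30 in WT at d3, against 9.79, 9.94, 10.21, 9.96 and 10.13 in the same lines at d0. The days did not overlap, and the means were 9.25 ± 0.115 at d3 and 10.01 ± 0.166 at d0 (SD, n = 5 lines), a 1.69-fold lower signal at d3 (difference -0.76, SE 0.0614, adjusted p = 7.6e-05). RFC is made of a large subunit, Rfc1, and 4 small ones, and these did not move together. Rfc5 had a mean level of 11.97 and read 11.70 in MMTR KD, 11.86 in MMTR-N, 11.73 in MMTR-C, 11.85 in MMTR-F and 11.70 in WT at d3, against 12.21, 12.37, 12.10, 12.14 and 12.07 in the same lines at d0. It was lower at d3 in every line, with no overlap, and the difference was -0.41 (SE 0.0554, adjusted p = 0.00068). Rfc3, with a mean level of 8.95, went the other way and read 9.09 in MMTR KD, 8.96 in MMTR-N, 9.08 in MMTR-C, 9.03 in MMTR-F and 9.13 in WT at d3, against 8.86, 8.77, 8.80, 8.90 and 8.88 in the same lines at d0. Its difference was 0.22 (SE 0.0496, adjusted p = 0.0078), again with no overlap between the days, and 0.44 after background correction by neqc. Rfc1, with a mean level of 11.96, fell by 0.17 (adjusted p = 0.041), a call that was lost whichever line was left out (adjusted p 0.051 to 0.13). Rfc2 (mean level 12.33) and Rfc4 (mean level 11.12) differed by 0.00 and -0.03, with adjusted p of 0.99 and 0.74.

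Polymerase delta was the complex with the most rises. Its catalytic subunit Pold1 had a mean level of 12.04 and read 12.18 in MMTR KD, 12.22 in MMTR-N, 12.33 in MMTR-C, 12.18 in MMTR-F and 12.32 in WT at d3, against 11.49, 12.02, 11.99, 11.76 and 11.89 in the same lines at d0. All d3 libraries were above all d0 libraries, with means of 12.24 ± 0.077 at d3 and 11.83 ± 0.218 at d0 (SD, n = 5 lines), a 1.33-fold higher signal at d3 (difference 0.42, SE 0.0734, adjusted p = 0.0024). The lowest d0 value was that of the library labelled MMTR KD. Pold3, an accessory subunit, had a mean level of 10.95 and read 10.88 in MMTR KD, 11.14 in MMTR-N, 11.23 in MMTR-C, 11.04 in MMTR-F and 11.25 in WT at d3, against 10.45, 10.90, 10.91, 10.87 and 10.82 in the same lines at d0. It was higher at d3 in each line, with a difference of 0.32 (SE 0.0589, adjusted p = 0.003), but the MMTR KD library at d3 did not exceed all d0 libraries. Pold2 (mean level 11.79), another accessory subunit, fell by 0.21 (adjusted p = 0.025), a call kept only without WT (with another line left out, adjusted p 0.061 to 0.085). Pold4, the smallest subunit, was detected on 9 arrays (mean level 8.38), and its difference was -0.02 (adjusted p = 0.8). The rises of Pold1 and Pold3 kept their sign with median scaling but did not pass the test there (0.20, adjusted p = 0.064, and 0.13, adjusted p = 0.13).

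In the polymerase alpha-primase complex, Pola2, the accessory subunit of the polymerase, had a mean level of 10.71 and read 10.72 in MMTR KD, 10.72 in MMTR-N, 10.93 in MMTR-C, 10.81 in MMTR-F and 10.94 in WT at d3, against 10.66, 10.48, 10.61, 10.68 and 10.57 in the same lines at d0. The days did not overlap, although the MMTR KD and MMTR-N values at d3 were only just above the highest d0 value. The difference was 0.22 (SE 0.0622, adjusted p = 0.019), and it did not pass without WT (adjusted p = 0.064), without MMTR-C (adjusted p = 0.065) or with median scaling, where it was 0.06 (adjusted p = 0.45). Prim2, the large primase subunit, fell by 0.36 (mean level 10, SE 0.0565, adjusted p = 0.0014), and its other probe by 0.39. Prim1, the catalytic primase subunit, had a mean level of 8.57 and a difference of -0.19 (adjusted p = 0.054).

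**Figure D2:**
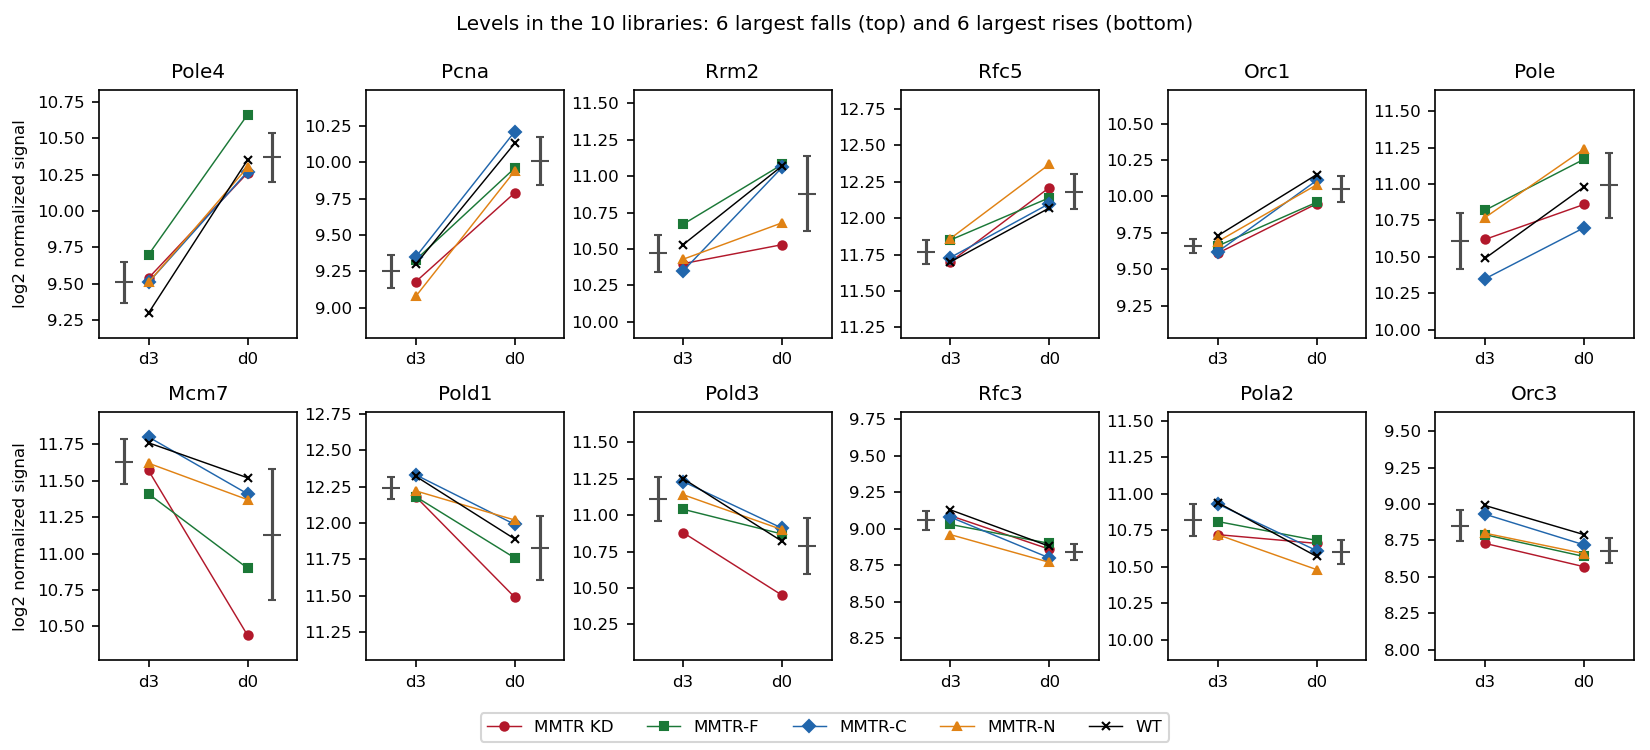
Levels (y axis, log2 normalized signal) of the 6 genes with the largest falls and the 6 with the largest rises among those that passed the test, at d3 (left) and d0 (right) in each panel. Lines join the libraries of 1 line, and bars beside them are the mean ± SD of 5 lines. All panels span the same height; the days are apart in Pole4, Pcna, Rfc5, Orc1, Pold1, Rfc3 and Pola2 and overlap in Rrm2, Pole, Mcm7, Pold3 and Orc3.

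Among the genes that mark and license origins, 5 fell, 1 rose and 2 did not pass, with a median difference of -0.17. Orc1, the ORC subunit that cycles on and off chromatin in mammalian cells, had a mean level of 9.85 and read 9.61 in MMTR KD, 9.69 in MMTR-N, 9.62 in MMTR-C, 9.66 in MMTR-F and 9.73 in WT at d3, against 9.95, 10.08, 10.11, 9.96 and 10.15 in the same lines at d0. The d3 libraries were all lower, and the difference was -0.39 (SE 0.0517, adjusted p = 0.00065). Orc3, another ORC subunit, was the 1 that rose. It had a mean level of 8.76 and read 8.73 in MMTR KD, 8.80 in MMTR-N, 8.93 in MMTR-C, 8.79 in MMTR-F and 8.99 in WT at d3, against 8.57, 8.66, 8.72, 8.64 and 8.79 in the same lines at d0. Orc3 was higher at d3 in all 5 lines, with overlapping ranges and a difference of 0.17 (SE 0.0474, adjusted p = 0.017), and was not called without WT (adjusted p = 0.051) or without MMTR-C (adjusted p = 0.055). Orc2 (mean level 8.58) fell by 0.32 (adjusted p = 0.0027), with no overlap between days, but its dimmer probe differed by 0.10 in the other direction and did not pass, and over the mean of both probes Orc2 gave -0.11 (adjusted p = 0.092). Background correction by neqc, which here inferred the background from the detection p-values, gave -0.91 for Orc2 and 0.40 for Orc3. Both genes read dim, with mean levels of 7.02 and 7.54 after this correction. Cdt1, which brings MCM2-7 to ORC, fell by 0.30 (mean level 12.88, adjusted p = 0.014), and by 0.26 without MMTR KD (adjusted p = 0.051). Orc5 (mean level 12.60, difference -0.17, adjusted p = 0.036) and Orc6 (mean level 12.99, difference -0.18, adjusted p = 0.035) passed narrowly. Orc5 kept its call only without MMTR-F and Orc6 only without MMTR-N, and with the other lines left out their adjusted p reached 0.10 and 0.11. Orc4 (mean level 8.92) and the loading ATPase Cdc6 (mean level 11.27) differed by 0.06 and -0.01, with adjusted p of 0.38 and 0.89.

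Of the 6 MCM2-7 genes, which form 1 ring, Mcm7 rose, Mcm5 fell and 4 did not pass. Mcm7 had a mean level of 11.38 and read 11.57 in MMTR KD, 11.62 in MMTR-N, 11.80 in MMTR-C, 11.41 in MMTR-F and 11.76 in WT at d3, against 10.44, 11.37, 11.41, 10.90 and 11.52 in the same lines at d0. It was higher at d3 in 5 of 5 lines, but the size differed, from 1.13 in MMTR KD to 0.24 in WT, and the means were 11.63 ± 0.156 at d3 and 11.13 ± 0.451 at d0 (SD, n = 5 lines) (difference 0.50, SE 0.124, adjusted p = 0.011). The d0 values of MMTR KD and MMTR-F were well below those of the other lines. A second Mcm7 probe differed by 0.00 between the days, so the rise is that of 1 probe. With median scaling it was 0.30 and did not pass (adjusted p = 0.09). Mcm5 (mean level 14.30) fell by 0.28 (adjusted p = 0.0052) and was lower at d3 in every line. The others gave -0.15 for Mcm2 (mean level 12.57, adjusted p = 0.05), -0.14 for Mcm3 (mean level 11.29, adjusted p = 0.12), -0.11 for Mcm6 (mean level 12.97, adjusted p = 0.3) and -0.02 for Mcm4 (mean level 14.48, adjusted p = 0.73).

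Of the 6 genes of helicase activation 3 fell and 3 did not pass. Mcm10, which binds the active helicase, fell by 0.21 with no overlap between days (mean level 13.00, adjusted p = 0.0099). Gins3 fell by 0.25 (mean level 9.45, adjusted p = 0.019), and was not called without WT (adjusted p = 0.056), MMTR-F (0.053) or MMTR-N (0.056). Gins4 fell by 0.14 (mean level 13.26, adjusted p = 0.048), a call lost whichever line was left out (adjusted p 0.076 to 0.13). The remaining GINS subunits, Gins1 (mean level 10.48) and Gins2 (mean level 10.47), differed by -0.15 and -0.01 (adjusted p = 0.071 and 0.94). Cdc45 (mean level 10.53) differed by -0.09 (adjusted p = 0.18).

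Ribonucleotide reductase makes the deoxyribonucleotides that polymerases use. Its small subunit Rrm2, whose amount follows S phase, had a mean level of 10.68 and read 10.40 in MMTR KD, 10.43 in MMTR-N, 10.35 in MMTR-C, 10.67 in MMTR-F and 10.53 in WT at d3, against 10.53, 10.68, 11.06, 11.08 and 11.07 in the same lines at d0. The MMTR KD library at d0 lay below the MMTR-F library at d3, so the days overlapped, but each line was lower at d3, with means of 10.47 ± 0.127 at d3 and 10.88 ± 0.259 at d0 (SD, n = 5 lines) and a difference of -0.41 (SE 0.0864, adjusted p = 0.0056). The large subunit Rrm1 (mean level 12.03) differed by 0.06 (adjusted p = 0.37). For the lagging strand, Lig1, which seals nicks between fragments, had a mean level of 12.08 and read 11.89 in MMTR KD, 11.97 in MMTR-N, 11.88 in MMTR-C, 12.10 in MMTR-F and 11.87 in WT at d3, against 11.83, 12.53, 12.29, 12.37 and 12.06 in the same lines at d0. It was lower at d3 in 4 of 5 lines and higher in MMTR KD, and fell by 0.27 in the fit (SE 0.087, adjusted p = 0.032). The call was kept only without MMTR KD (with another line left out, adjusted p 0.054 to 0.099), and over the mean of its probes Lig1 gave -0.16 (adjusted p = 0.076). Fen1, the nuclease that trims flaps before ligation, had a mean level of 12.56 and a difference of 0.11 (adjusted p = 0.14). RPA coats single-stranded DNA, and none of its subunits passed: Rpa1 (mean level 14.14) differed by -0.05, Rpa2 (mean level 10.52) by 0.02 and Rpa3 (mean level 11.82) by 0.11, with adjusted p of 0.46, 0.89 and 0.26.

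Several probes were kept for 18 of the 43 genes, and in 9 of these all probes had the same sign for d3 minus d0. Of the 30 dimmer probes 12 fell, 3 rose and 15 did not pass, beside 4398 that fell and 4259 that rose of all 17775 probes. Rpa2 showed the widest gap: its brightest probe differed by 0.02, another by 0.03, and the last fell by 0.86 (adjusted p = 7e-05). For Mcm6 the brightest probe gave -0.11 while the other 3 fell by 0.28, 0.52 and 0.21. Further genes whose brightest probe did not pass had another that did: Rfc4 fell by 0.30 (adjusted p = 0.0065), Mcm4 by 0.26 (adjusted p = 0.014), Orc4 by 0.25 (adjusted p = 0.0079), Pold4 by 0.21 (adjusted p = 0.014) and Pole3 by 0.18 (adjusted p = 0.044), while Rrm1 rose by 0.34 (adjusted p = 0.02), Rfc2 by 0.33 (adjusted p = 0.013) and Gins2 by 0.30 (adjusted p = 0.024). Which transcript forms these probes read was not tested. With the mean over the probes of each gene, 19 genes fell and 7 rose, beside 2358 and 2348 of all 9401. Mcm6, Rfc4, Rpa2 and Mcm2, which has 1 probe, were then also called lower and Rrm1 higher. Lig1, Orc2 and Orc5 were not called there.

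**Figure D3:**
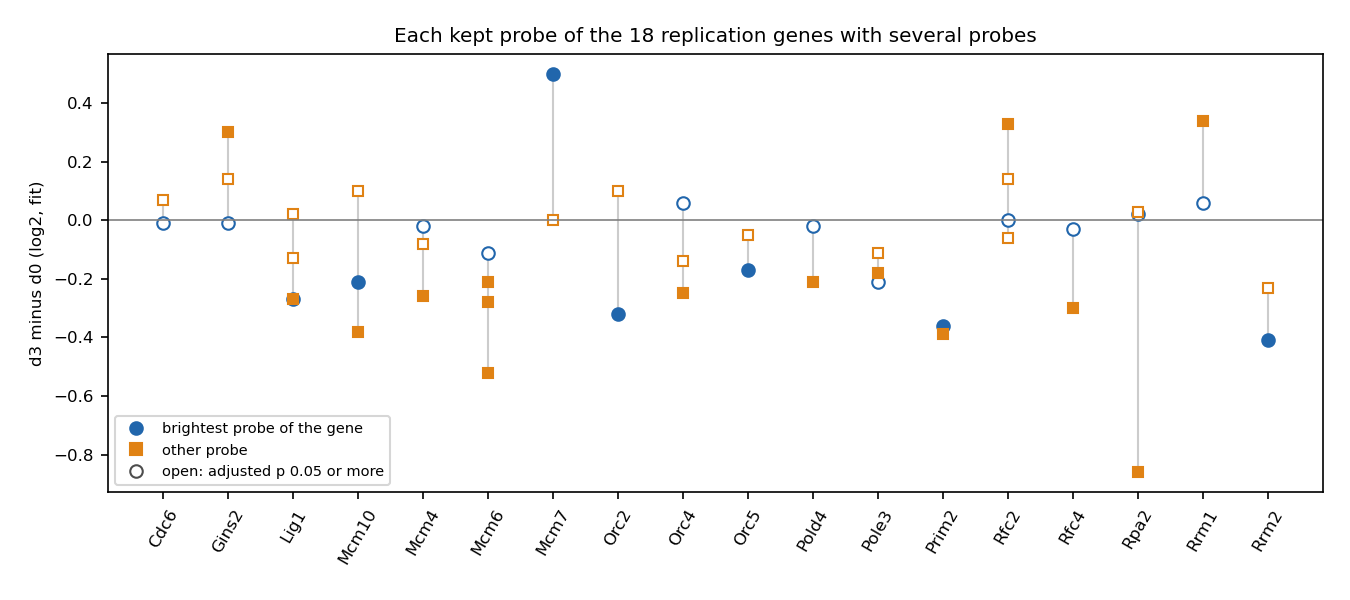
Fitted d3 minus d0 difference (y axis, log2) of each kept probe of the 18 genes with several. Circles are the brightest probe of a gene, squares the others, and open symbols have an adjusted p of 0.05 or more. The probes of Prim2 lie together at -0.36 and -0.39, whereas those of Rpa2 run between 0.03 and -0.86 and those of Mcm7 between 0.50 and 0.00.

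Matches to the E2F motif were found in 5 of the 6 genes that rose (Mcm7, Orc3, Pold1, Pold3, Rfc3), in 6 of the 15 that fell and had a window (Cdt1, Gins3, Lig1, Mcm5, Orc1, Pole4) and in 3 of the 15 that did not pass (Cdc6, Mcm3, Mcm6). Genes with the motif thus moved in both directions between the days, and Pcna and Rrm2, among the largest falls, had no match in their windows.

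Genes that work beside the replication machinery were read in the same fit, where 26% of all 9401 genes rose and 25.3% fell. In either direction 51.3% of all genes passed, beside 40.6% of the genes for other fork functions and 45.5% for nucleotide synthesis. The shares were 45.5% in the E2F family, 58.8% for G2/M, 72.7% for checkpoint and repair, and 70% of the mESC markers. Of 32 measured genes of 35 listed for other fork functions, 7 rose and 6 fell, with a median of -0.02: Cdc7, the kinase that fires origins, rose by 0.53 (adjusted p = 0.00033), Mcmbp, which binds MCM proteins, rose by 0.30 (adjusted p = 0.0022), and Chtf18, part of an alternative clamp loader, fell by 0.41 (adjusted p = 0.0019). Of 11 measured genes of 12 listed for nucleotide synthesis 5 fell and 6 did not pass, with a median of -0.12. There Tk1, a thymidine salvage enzyme, fell by 0.43 (adjusted p = 0.00094), Tyms, which makes thymidylate, by 0.36 (adjusted p = 0.00099) and Shmt1, a one-carbon enzyme, by 0.41 (adjusted p = 0.0011). In the E2F family and its pocket proteins 3 of 11 genes rose and 2 fell (median 0.01). The repressor E2f6 rose by 0.69 (adjusted p = 0.00026) and E2f7, another repressor, by 0.25 (adjusted p = 0.014), while the activator E2f2 fell by 1.06 (adjusted p = 0.00042). Of 17 G2/M genes 1 rose and 9 fell, with a median of -0.18, and among them the spindle factor Tpx2 fell by 0.73 (adjusted p = 5e-05), Birc5, a chromosomal passenger protein, by 0.40 (adjusted p = 6e-04) and the checkpoint kinase Bub1b by 0.33 (adjusted p = 0.0032). Of 11 genes of the replication checkpoint and fork repair 1 rose and 7 fell (median -0.23), where Brca1, a repair factor, fell by 0.60 (adjusted p = 0.00033), Rad1, part of the checkpoint clamp, by 0.39 (adjusted p = 0.0011) and Fancd2, a crosslink repair factor, by 0.33 (adjusted p = 0.0017). The mESC markers moved in the same libraries: 6 of 10 fell and 1 rose, with a median of -0.63. The pluripotency factor Sox2 fell by 0.88 (adjusted p = 0.00024), the Nodal co-receptor Tdgf1 by 1.14 (adjusted p = 0.00025) and the naive marker Zfp42 by 1.69 (adjusted p = 0.00063). Sall4 was the 1 that rose, by 0.36 (adjusted p = 0.04). Pou5f1 (-0.28, adjusted p = 0.076), Dppa4 (-0.20, adjusted p = 0.17) and Utf1 (0.02, adjusted p = 0.88) did not pass. Markers of other cell types moved as well: of the 7 that were measured, Dab2 rose by 1.10 (adjusted p = 0.0015), Thy1 by 0.54 (adjusted p = 0.017), Nes by 0.47 (adjusted p = 0.019) and Mixl1 by 0.33 (adjusted p = 0.033), Sox7 fell by 0.86 (adjusted p = 0.0051), and Tfap2a and Csf1r did not pass (-0.18 and 0.05). The part of these markers in the result was not tested.

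The comparison of each line with WT asks how the same genes differed between that line and WT, over both days together. It compares lines, and the part of the amount of MMTR in any difference was not tested. Few replication genes passed the test against WT, which sets 2 libraries against 2. A gene that did not pass was not shown to equal WT. In the line labelled MMTR KD, 1 of 43 was higher and 2 were lower, beside 2.3% and 2.04% of all genes, so that the share of the set was close to that of all genes upward and a little above it downward. In the 3 lines transfected with MMTR plasmids none passed, beside 0.0957% higher and 0.0319% lower of all genes in MMTR-N, 0.0106% and 0.0213% in MMTR-C, and 0.0319% and 0.0106% in MMTR-F. At an unadjusted p below 0.05 by limma, 18 of the 43 genes differed in MMTR KD, 6 in MMTR-N, 5 in MMTR-C and 8 in MMTR-F, beside 23.4%, 17.3%, 10.2% and 17.3% of all genes. In MMTR KD this was a larger share than among all genes, and in the other lines the shares were similar. With neqc the count in MMTR KD was 12, where all genes were not counted. The shifts of whole chromosomes in MMTR KD, described below, were left in these counts, and their part was not tested. The 4 comparisons share the WT libraries. The medians of the set were -0.03 in MMTR KD, -0.05 in MMTR-N, 0.00 in MMTR-C and 0.01 in MMTR-F, beside 0.01, -0.01, -0.01 and 0.00 for all genes. With at least 1 alternative processing each of the 3 calls in MMTR KD was lost.

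Cdc45, the helicase partner of MCM2-7, was higher in MMTR KD than in any other line on both days: it read 10.96 in MMTR KD, 10.37 in MMTR-N, 10.37 in MMTR-C, 10.34 in MMTR-F and 10.39 in WT at d3, against 11.02, 10.54, 10.52, 10.31 and 10.50 in the same lines at d0. The difference from WT was 0.55 (SE 0.083, adjusted p = 0.023). It passed in all alternatives but background correction by neqc (0.64, adjusted p = 0.084). The genes called lower were both GINS subunits. Gins3 read 8.97 in MMTR KD, 9.36 in MMTR-N, 9.37 in MMTR-C, 9.57 in MMTR-F and 9.35 in WT at d3, against 9.01, 9.83, 9.51, 9.85 and 9.67 in the same lines at d0. The MMTR KD values were the lowest of each day, with a difference of -0.52 (SE 0.111, adjusted p = 0.047). With neqc it was -0.89 and did not pass (adjusted p = 0.076), and without MMTR-F or MMTR-C in the fit the call was lost (adjusted p = 0.075 and 0.071). Gins4 read 12.81 in MMTR KD, 13.37 in MMTR-N, 13.18 in MMTR-C, 13.34 in MMTR-F and 13.26 in WT at d3, against 13.03, 13.51, 13.28, 13.48 and 13.34 in the same lines at d0. MMTR KD was again lowest on both days, with a difference of -0.38 (SE 0.0778, adjusted p = 0.042), or -0.57 with median scaling, and the call was lost when any other altered line was left out (adjusted p 0.06 to 0.071).

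Gins3 and Gins4 lie on chromosome 8, and all 6 replication genes of this chromosome read lower in MMTR KD than in WT. The other 4 gave -0.41 for Orc6 (adjusted p = 0.054), -0.35 for Mcm5 (adjusted p = 0.086), -0.33 for Gins2 (adjusted p = 0.19, with its other probes at -0.66, adjusted p = 0.047, and -0.48, adjusted p = 0.077) and -0.20 for Cdt1 (adjusted p = 0.42). Orc6 read 12.47 in MMTR KD, 13.26 in MMTR-N, 12.81 in MMTR-C, 13.14 in MMTR-F and 12.82 in WT at d3, against 12.64, 13.30, 13.09, 13.24 and 13.12 in the same lines at d0. Mcm5 read 13.85 in MMTR KD, 14.06 in MMTR-N, 14.29 in MMTR-C, 14.25 in MMTR-F and 14.33 in WT at d3, against 14.29, 14.33, 14.46, 14.60 and 14.51 in the same lines at d0. In both genes the MMTR KD library was the lowest of its day. Gins2, a further GINS subunit, read 10.20 in MMTR KD, 10.56 in MMTR-N, 10.60 in MMTR-C, 10.50 in MMTR-F and 10.48 in WT at d3, against 10.12, 10.80, 10.33, 10.63 and 10.49 in the same lines at d0. Cdt1 read 12.41 in MMTR KD, 13.01 in MMTR-N, 12.59 in MMTR-C, 12.94 in MMTR-F and 12.70 in WT at d3, against 12.87, 13.15, 13.13, 13.02 and 12.98 in the same lines at d0. For these genes too MMTR KD had the lowest value at each day. The median of the 6 was -0.36, and -0.36 at d3 and -0.34 at d0 taken singly, while the 37 genes on other chromosomes had a median of 0.01, with 17 lower. The chromosome as a whole was lower in this line: its 528 measured genes had a median of -0.31, with 86.9% below 0 and 21.2% called lower, against 0.02 for the 8861 genes elsewhere. In the other lines the 6 genes had medians of 0.17 in MMTR-N, -0.03 in MMTR-C and 0.12 in MMTR-F, where the medians of all genes of the chromosome were 0.01, -0.02 and 0.03. The part of the chromosome in the results for single genes was not tested.

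**Figure D4:**
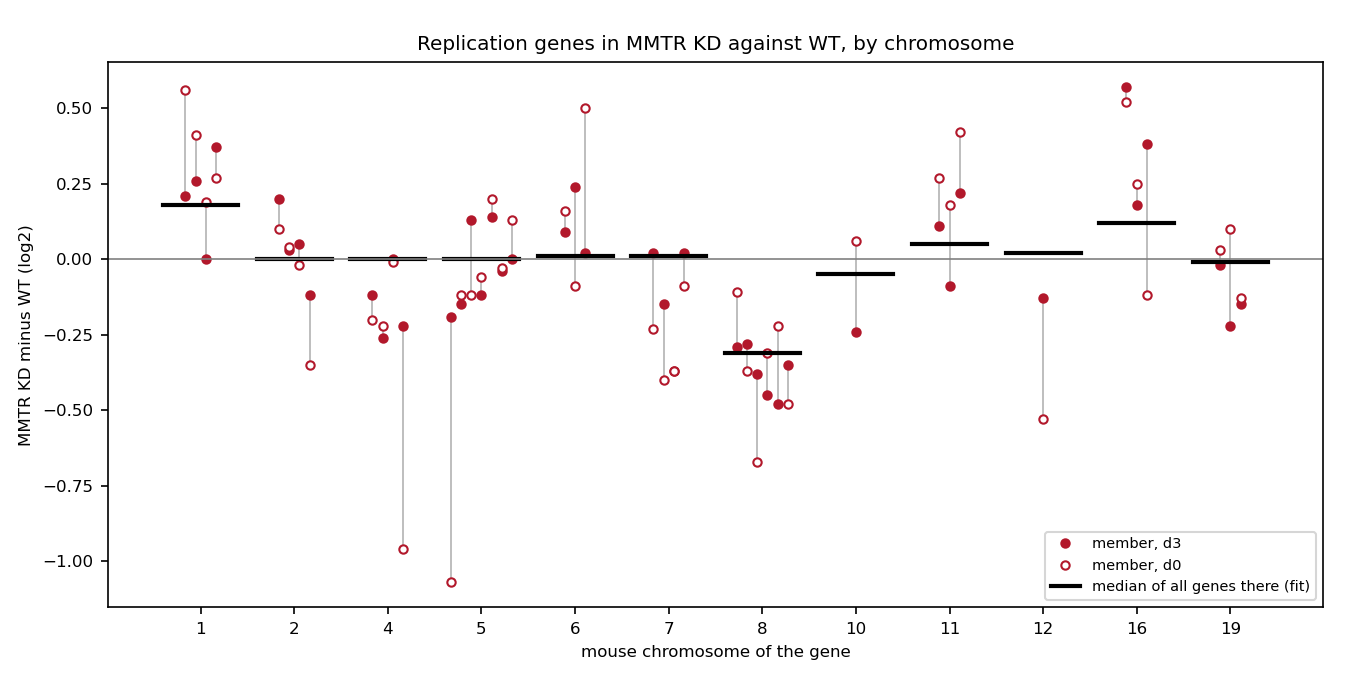
Difference between MMTR KD and WT (y axis, log2) of the 43 replication genes by mouse chromosome (x axis), filled at d3 and open at d0, with a line joining the days of 1 gene. Black bars are the fitted median of all measured genes on the chromosome. All points of chromosome 8 lie below 0, around the chromosome's median of -0.31, and Mcm7 and Rpa2 are far below 0 at d0.

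Chromosome 1 showed the opposite shift, with a median over its 467 genes of 0.18 in MMTR KD and 0.18 in MMTR-C. Its 4 replication genes were Mcm3, Mcm6, Prim2 and Orc2. Mcm3 read 11.41 in MMTR KD, 10.74 in MMTR-N, 11.55 in MMTR-C, 11.21 in MMTR-F and 11.20 in WT at d3, against 11.63, 10.88, 11.82, 11.41 and 11.07 in the same lines at d0. It was above WT in MMTR KD (difference 0.38, adjusted p = 0.098) and MMTR-C (0.54, adjusted p = 0.29) and below it in MMTR-N (-0.33, adjusted p = 0.22). Mcm6 read 13.12 in MMTR KD, 12.40 in MMTR-N, 13.34 in MMTR-C, 12.84 in MMTR-F and 12.87 in WT at d3, against 13.09, 12.72, 13.46, 13.16 and 12.69 in the same lines at d0. It was highest in MMTR-C (0.62 over WT, adjusted p = 0.30), and its 4 probes gave 0.33, 0.41, 0.25 and 0.14 for MMTR KD. Prim2 and Orc2 gave 0.32 and 0.09 in MMTR KD, and 0.21 and 0.06 in MMTR-C. In MMTR-N the 4 genes gave -0.33, -0.22, 0.04 and -0.07, where the median of the chromosome was -0.09. Cdc45 lies on chromosome 16, whose 297 genes had a median of 0.12 in MMTR KD, and its neighbours there in the set were at 0.21 (Mcm4) and 0.13 (Rfc4). The part of these chromosome shifts in the result was not tested.

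The genes farthest below WT were Mcm7 and Rpa2, in MMTR KD and in MMTR-F alike, with no call. Mcm7, whose values are given above, differed by -0.63 in MMTR KD (adjusted p = 0.13) and by -0.48 in MMTR-F (adjusted p = 0.30), with larger gaps at d0 than at d3, and the second Mcm7 probe gave 0.16 in MMTR KD. Rpa2 read 10.42 in MMTR KD, 10.52 in MMTR-N, 10.57 in MMTR-C, 10.50 in MMTR-F and 10.63 in WT at d3, against 10.02, 10.57, 10.60, 10.37 and 10.98 in the same lines at d0. It differed by -0.59 in MMTR KD (adjusted p = 0.081), -0.37 in MMTR-F (adjusted p = 0.30) and -0.27 in MMTR-N (adjusted p = 0.47), and its 2 other probes gave -0.18 and -0.14 in MMTR KD. Both genes were highest in WT at d0. Rfc4, a small RFC subunit, read 11.50 in MMTR KD, 11.04 in MMTR-N, 10.87 in MMTR-C, 10.97 in MMTR-F and 11.12 in WT at d3, against 11.25, 11.22, 10.78, 11.06 and 11.37 in the same lines at d0. It was the lowest gene relative to WT in MMTR-C (-0.42, adjusted p = 0.43), followed by Rpa2 (-0.22, adjusted p = 0.75). Above WT, the extremes were Pole4 (0.35, adjusted p = 0.17) and Lig1 (0.27, adjusted p = 0.40) in MMTR-F, and Orc6 (0.31, adjusted p = 0.20) and Lig1 (0.29, adjusted p = 0.38) in MMTR-N. Over the MCM2-7 genes the median difference was 0.17 in MMTR KD, -0.18 in MMTR-N, 0.06 in MMTR-C and 0.15 in MMTR-F.

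**Figure D5:**
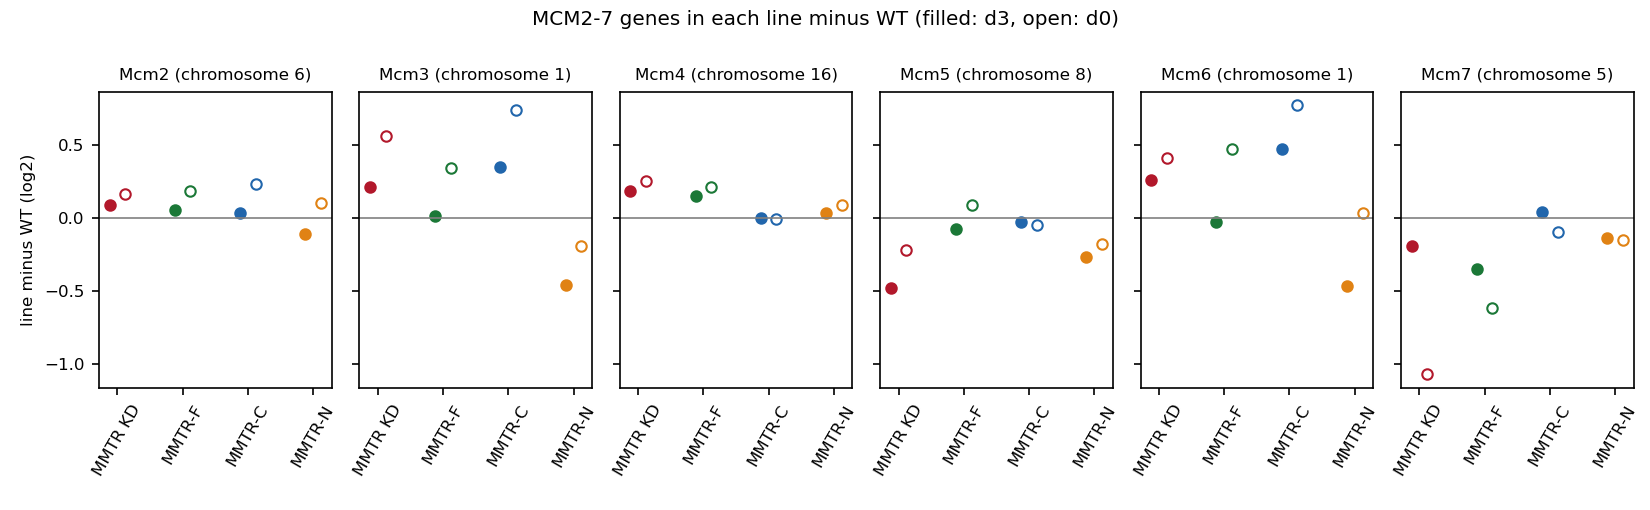
Difference from WT (y axis, log2) of the 6 MCM2-7 genes in each of the other lines (x axis), filled at d3 and open at d0, with 1 library per line and day. Mcm3 and Mcm6 are above WT in MMTR KD and MMTR-C on both days, Mcm5 is below WT in MMTR KD on both, and Mcm7 is -1.07 in MMTR KD at d0.

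Single pairs of libraries have no test, and a gene was counted as different at 0.5 or more. Between d3 and d0, 5 of the 43 genes reached this in MMTR KD, 5 in MMTR-N, 4 in MMTR-C, 3 in MMTR-F and 3 in WT, beside 19.7%, 20.9%, 21.7%, 16% and 21.8% of all genes. In each line this was a smaller share than among all genes, and it was so with neqc too, where 9, 11, 9, 4 and 7 genes reached 0.5 beside 39.4%, 39.9%, 42.3%, 36.5% and 41.2% of all genes. Pole4 and Pcna were lower by at least this much in every line. In WT they were joined by Rrm2 (-0.54), in MMTR-C by Rrm2 (-0.72) and Cdt1 (-0.54), and in MMTR-N by Lig1 (-0.56), Pole3 (-0.55) and Rfc5 (-0.51). In MMTR KD Rfc5 was lower (-0.51) and Mcm7 (1.13) and Pold1 (0.69) were higher, and in MMTR-F Mcm7 was higher (0.51). Against WT at d3, 1 gene reached 0.5 in MMTR KD (Cdc45, 0.57) and none did in MMTR-N, MMTR-C or MMTR-F, beside 8%, 10.6%, 1.32% and 8.95% of all genes. Against WT at d0, 6 did in MMTR KD, none in MMTR-N, 3 in MMTR-C and 2 in MMTR-F, beside 12.2%, 4.29%, 5.96% and 6.51% of all genes, which are similar shares in MMTR KD and MMTR-C. The 6 in MMTR KD were Mcm3 (0.56), Cdc45 (0.52), Mcm7 (-1.07), Rpa2 (-0.96), Gins3 (-0.67) and Rrm2 (-0.53). In MMTR-F they were Mcm7 (-0.62) and Rpa2 (-0.61), and in MMTR-C Mcm6 (0.77), Mcm3 (0.74) and Rfc4 (-0.59).

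Of the neighbouring lists, MMTR KD differed from WT in 3 of 11 genes of the E2F family (1 higher, 2 lower), 2 of 11 of nucleotide synthesis (both lower), 2 of 32 of other fork functions (1 higher, 1 lower), 1 of 11 of the checkpoint (higher) and 0 of 17 G2/M genes, beside the 2.3% higher and 2.04% lower of all genes. Of the E2F family, E2f1, an activator, was higher by 0.73 (adjusted p = 0.029), and Tfdp1, the dimer partner of E2Fs, and E2f4 were lower, with differences of -0.62 (adjusted p = 0.018) and -0.60 (adjusted p = 0.029). Of the genes of nucleotide synthesis, Dut, which removes dUTP, and Dctd, a deoxycytidylate deaminase, gave -0.65 (adjusted p = 0.028) and -0.51 (adjusted p = 0.047). Of the RNase H2 subunits, which remove ribonucleotides from DNA, Rnaseh2b gave 0.55 (adjusted p = 0.038) and Rnaseh2a -0.90 (adjusted p = 0.047). Hus1, a partner of Rad1 in the checkpoint clamp, was higher by 0.64 (adjusted p = 0.023). Tfdp1, E2f4, Dctd and Rnaseh2a lie on chromosome 8, like Gins3 and Gins4. Of the 7 measured markers of other cell types, Dab2 was higher in MMTR KD by 1.5 (adjusted p = 0.033), and its part in the result was not tested.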

How the data were processed

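Biotin-labelled RNA of 10 libraries was read on Illumina mouse arrays. The authors deposited the mean bead intensity of 45281 probes per array, not background-subtracted, and a detection p-value for each, written by BeadStudio 3.2 and lumi per the labels or by GenomeStudio per the methods. A second table that the authors deposited holds log2 values for 16652 probes, all within 0.044 of the intensities after log2 and quantile steps. A probe table named 14281 of the 17775 kept probes (9401 genes), of which 14267 had a gene ID in RefSeq.

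Probes with a detection p-value up to 0.05 on 5 or more arrays were kept, put on the log2 scale and quantile normalized. limma 3.58.1 (R 4.3.3) fitted line and day as terms over all 10 libraries (two-sided tests with 4 residual and 4.06 prior degrees of freedom, adjusted over the 17775 probes by Benjamini-Hochberg, threshold 0.05). The fit was run on simulated data with independent noise and planted changes, without shifts of array brightness or of whole chromosomes. That run checks the code of the fit and not the calls given here. Single pairs of libraries were counted at a difference of 0.5, with no test. The lines serve as the pairs of the days. The number of arrays limits the precision. Promoters were searched with Python 3.11.15, pandas 2.3.3 and scipy 1.17.1, and figures were drawn with matplotlib 3.10.9.

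The members, gene lists and tests were chosen with earlier results of these data known. Values in all libraries are given for the 6 largest rises and falls that passed, genes that passed against WT, the 2 farthest above and below WT in each line, and genes of chromosome 8, and of the other lists up to 3 genes with the smallest adjusted p between the days. Further markers of mESCs and of other cell types are named beside these. Values of Dixon's ratio were taken over the 5 libraries of a day. Alternatives were background correction, scaling, filters on dim probes, the deposited log2 table, the variance prior, the mean over probes, leaving out a line or chromosome 8, the day alone, and the methods' test.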

Additional observations from a re-analysis of the deposited data

Results flagged for a closer look

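In 6 of 86 groups, each the 5 libraries of a day for 1 gene, the highest or lowest library stood apart from the rest by Dixon's ratio (6.98%, where chance gives about 1 in 20), and the causes were not tested. Cdc45 was 10.96 in MMTR KD at d3, with the next library at 10.39 and the lowest at 10.34. Cdc6, an origin licensing ATPase, was 10.98 in MMTR-N at d3, with the next at 11.27 and the highest at 11.38. Pold2 was 11.77 in WT at d0, where the next was 11.91. Pold3 was 10.45 in MMTR KD at d0, with the next at 10.82. Pole3 was 10.24 in MMTR-C at d0, with the next at 10.48. Pole4 was 10.66 in MMTR-F at d0, with the next at 10.35.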

How the results depend on the processing

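No result changed sign as a call under the alternatives run. With median scaling, 28 genes were lower and 2 higher at d3, beside 4821 and 5797 of all 17775 probes, and the median was -0.30. There 6 genes were called in MMTR KD (Cdc45, Gins4, Mcm5, Orc6, Pold3, Rpa2), the medians against WT were -0.06 in MMTR-C, -0.07 in MMTR-F and -0.15 in MMTR KD, and the chromosome 8 genes had -0.55 in MMTR KD. That median was -0.40 with neqc, -0.38 with normexp, -0.39 with cyclic loess and -0.40 over the mean of probes. The count called in MMTR KD was 0 with neqc (12 at an unadjusted p below 0.05), 1 without chromosome 8 probes, 1 with an intensity trend and robust prior, and 1 to 2 when another line was left out. Its median was -0.06 over the mean of probes, and that of MMTR-C was 0.03 without chromosome 8 probes. The threshold of 1 was counted for the set alone, without the share of all genes. At this threshold, the genes counted between the days were 1 in MMTR KD, 0 in each transfected line and 1 in WT. Against WT they were 0 in MMTR KD at d3 and, at d0, 1 in MMTR KD, 0 in MMTR-C and 0 in MMTR-F. With neqc at 0.5, they were 9 in MMTR KD, 9 in MMTR-C, 11 in MMTR-N and 7 in WT between the days (39.4%, 42.3%, 39.9% and 41.2% of all genes), and against WT 6 in MMTR KD, 1 in MMTR-N, 1 in MMTR-C and 2 in MMTR-F at d3 (23.9%, 28.1%, 9.81% and 25% of all genes), and 1 in MMTR-N at d0 (15.3%). No gene passed against WT in the other lines in any setting, by limma. Calls against WT over all probes were not counted under the alternatives. The causes of these shifts were not tested. Counts between the days otherwise stayed within 1.5 times: 4 to 7 higher and 12 to 14 lower with a line left out, 4 and 12 with the day alone as the term (no replicate block of lines), and 5 and 15 with the methods' test after Benjamini-Hochberg adjustment (7 and 19 unadjusted). Of all 17775 probes, 3469 to 3818 were higher and 3607 to 3857 lower with a line left out. With the day alone 3368 were higher and 3551 lower, and for the methods' test all probes were not counted. Of the called genes, 1 of 6 higher (Rfc3) and 8 of 18 lower passed in every setting that could be run. The same count was not made over all genes. One library per line and day leaves differences of single lines between the days without a test.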
